A study of Mus musculus with 12 samples.

Results

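The SLC25 family of carrier proteins, which moves metabolites across the inner mitochondrial membrane, was followed through the RNA of mouse primary hepatocytes with and without the nuclear receptor Fxr. Members were taken by name. They are all genes whose symbol is Slc25a followed by a number, together with Ucp1, Ucp2 and Ucp3, leaving out Slc25a15, Slc25a20, Slc25a28 and Slc25a37. This gave 44 of the 16728 genes of the table. The rule itself uses only names, but it was set with earlier results of these data known. Of the 44 genes, 34 passed a filter on low counts and were tested, and 10 did not.

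The study has 4 groups of 3 libraries each. They are Fxr-/- (KO) cells given FAC (KO FAC), Fxr-/- cells given AC (KO AC), wild-type cells given FAC (WT FAC) and wild-type cells given AC (WT AC), with each agent at 100 µM for 24 h. All cells were liver-derived hepatocytes of the C57BL/6 strain, kept in DMEM with 10% serum, and libraries 1 to 3 of each genotype received AC and 4 to 6 received FAC. What FAC and AC stand for is not spelled out in the labels, and the series title speaks of iron overload. Ages of the mice, and whether replicate libraries had an animal or a culture of their own, are not stated. The p-values therefore measure only the spread between these libraries, which may be technical.

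Carriers of this family are small membrane proteins built from repeats of the same fold, and most exchange one metabolite for another. They bring ADP and phosphate to the ATP synthase and carry ATP out, export citrate for lipid synthesis, pass reducing equivalents through the malate-aspartate shuttle, and import cofactors such as NAD, coenzyme A, S-adenosylmethionine and glutathione. In hepatocytes they connect the mitochondrial matrix with gluconeogenesis, urea synthesis and lipogenesis in the cytosol. Fxr, encoded by Nr1h4, senses bile acids and acts as a transcription factor.

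Library totals ranged from 16464494 to 18335700 estimated reads, and 14258 to 14492 genes had at least 1 read. Nr1h4 stood at 3.54 to 4.89 CPM in KO FAC, 6.97 to 9.35 in KO AC, 6.95 to 7.69 in WT FAC and 13.0 to 15.6 in WT AC libraries, where CPM is the estimated count relative to the TMM-scaled library size, the unit used here for one gene between libraries. These counts cover the whole gene and give no test of the deletion. The first principal component of all tested genes held 59.2% of the variance and separated the KO from the WT libraries. The third component (7.42% of the variance) set KO AC 1, KO FAC 5 (at 3.26) and KO FAC 6 apart from KO AC 2, KO AC 3 and KO FAC 4. It also separated treatment in WT cells, with WT AC libraries at 8.41 to 12.2 and WT FAC libraries at −14.3 to −2.12. Because of the division among KO libraries, calls that change without KO AC 1 and KO FAC 4, or without KO AC 1 and KO FAC 6, are given below for the genes described. For 22 of the 34 tested carriers (64.7%), and for 5992 of all 12275 tested genes (48.8%), KO AC 1 and KO FAC 4 were at opposite ends of their groups. The 10 hepatocyte markers summed to 16578 to 17591 FPKM in KO FAC, 13544 to 14362 in KO AC, 17401 to 18394 in WT FAC and 13054 to 13321 in WT AC libraries.

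Markers of other liver cells moved with the groups as well. The 7 macrophage markers in the table summed to 626 to 714 FPKM in KO FAC, 493 to 610 in KO AC, 600 to 647 in WT FAC and 336 to 394 in WT AC libraries. The 6 cholangiocyte markers summed to 83.6 to 101 FPKM in KO FAC and 53.7 to 63.6 in KO AC libraries, against 258 to 296 in WT FAC and 308 to 314 in WT AC libraries. The 7 stellate markers in the table summed to 0.55 to 0.70 FPKM in KO FAC and 0.58 to 0.70 in KO AC libraries, against 1.89 to 2.19 in WT FAC and 2.59 to 3.40 in WT AC libraries, so KO lay below WT without overlap. The 8 endothelial markers summed to 10.4 to 11.9 FPKM in KO FAC, 10.6 to 11.1 in KO AC, 11.5 to 13.1 in WT FAC and 8.34 to 9.41 in WT AC libraries, with WT FAC above WT AC. The 4 leukocyte markers summed to 0.01 to 0.65 FPKM in KO FAC and 0.09 to 0.11 in KO AC, against 0.73 to 1.25 in WT FAC and 0.30 to 0.97 in WT AC libraries. The part of these cells in the results below was not tested, and in bulk RNA fewer cells of a type and less RNA per cell cannot be told apart.

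A few carriers made up most of the family's RNA. The 44 genes summed to 1393 to 1533 FPKM in KO FAC, 1297 to 1436 in KO AC, 1431 to 1471 in WT FAC and 1453 to 1521 in WT AC libraries, and 4 of them held 71.3% to 77.2% of that sum. FPKM, the authors' count per length and depth, is used here for levels between genes. The 4 were Slc25a5, an ADP/ATP exchanger, Slc25a3, the phosphate carrier, Slc25a39, a glutathione carrier, and Slc25a1, the citrate carrier. Slc25a5 averaged 330.3 ± 13.0 FPKM in KO FAC, 325 ± 1.78 in KO AC, 419 ± 15.8 in WT FAC and 406 ± 14.2 in WT AC libraries (SD, n = 3 each). Slc25a3 averaged 359.9 ± 8.67 FPKM in KO FAC, 258 ± 12.8 in KO AC, 294 ± 5.00 in WT FAC and 289 ± 6.23 in WT AC libraries. Slc25a5 ranked first in 3 of the groups, and in KO FAC Slc25a3 took that place, with its 3 libraries (351 to 368 FPKM) above those of Slc25a5 (320.0 to 345 FPKM). Ranks below the first 4 began at Slc25a4, a second ADP/ATP exchanger, with 48.0 ± 6.33 FPKM in KO FAC, and at Slc25a24, an ATP-Mg/phosphate carrier, with 49.3 ± 2.03 FPKM in WT AC.

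**Figure D1:**
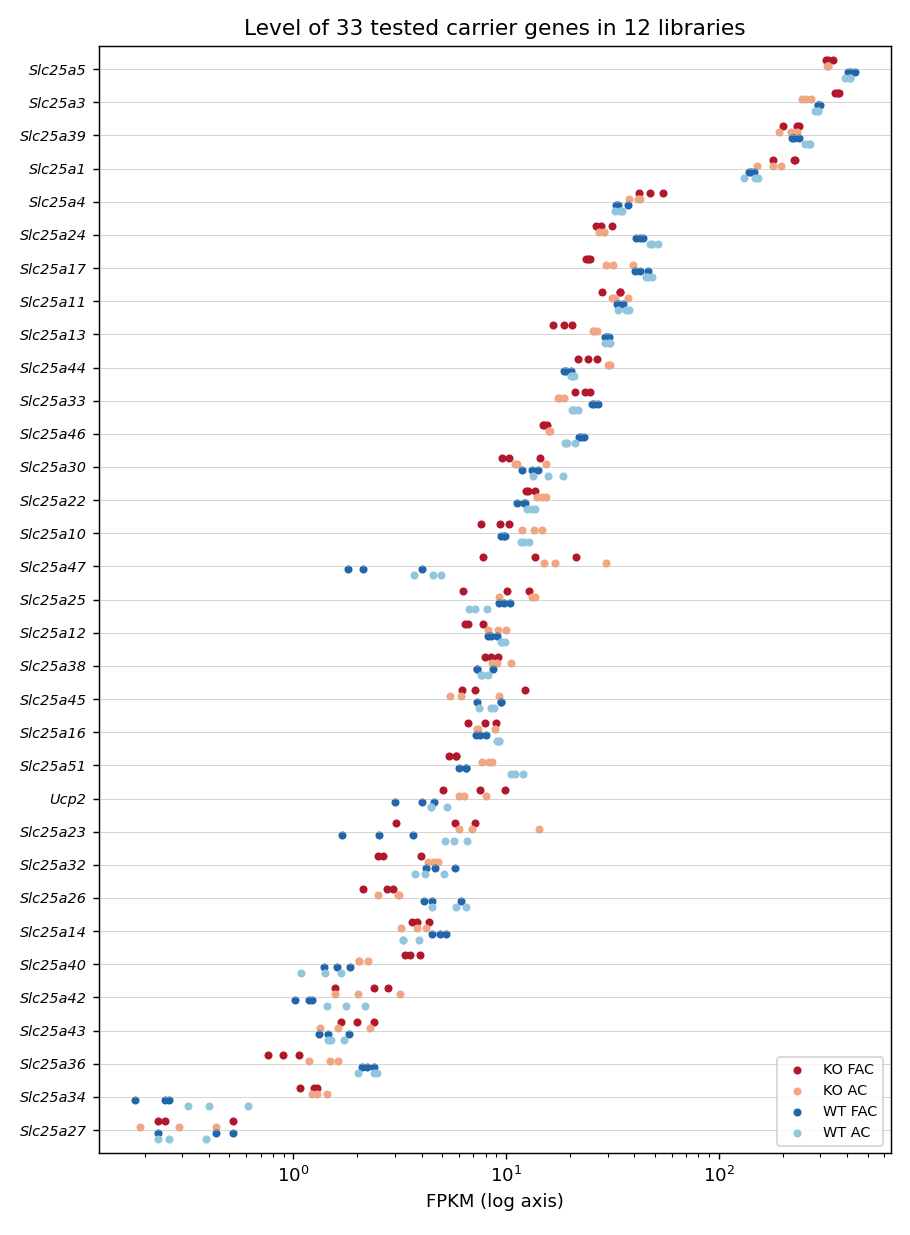
FPKM of 33 of the 34 tested carrier genes on a log axis, 1 point per library, coloured by group. Slc25a5, Slc25a3, Slc25a39 and Slc25a1 lie above 130 FPKM in all 12 libraries, and Slc25a27 stays at 0.52 FPKM or below.

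The 10 carriers that were not tested were Slc25a2, Slc25a18, Slc25a21, Slc25a29, Slc25a31, Slc25a35, Slc25a48, Slc25a53, Ucp1 and Ucp3. None passed 0.43 FPKM in any library. Ucp3, an uncoupling protein of muscle, had 1 estimated read in all 12 libraries together, and Ucp1, that of brown fat, had 7. With so few reads, differences between groups were not detectable for these genes.

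The number of carriers called for FAC in each genotype depended on the fit. In KO cells 12 of 34 were called, meaning an edgeR quasi-likelihood p, adjusted by Benjamini-Hochberg over all 12275 tested genes, under 0.05. Of these, 5 rose (Slc25a40, Slc25a3, Slc25a33, Slc25a1 and Slc25a4) and 7 fell (Slc25a36, Slc25a10, Slc25a51, Slc25a13, Slc25a17, Slc25a12 and Slc25a44). In WT cells 4 of 34 were called. Slc25a14, Slc25a33 and Slc25a46 rose, and Slc25a51 fell. Slc25a33, a pyrimidine nucleotide carrier, and Slc25a51, the NAD carrier, were called in both genotypes in the same direction, and no carrier was called in opposite directions.

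These counts are read against all tested genes. In KO cells FAC called 35.3% of tested carriers, against 29.6% of all tested genes. In WT cells it called 11.8% of tested carriers, against 17.2% of all tested genes (8.70% higher, 8.55% lower). Both shares of carriers lie near the background, so the counts are not a result about the family. The median log2 fold change of the tested carriers was −0.02 in KO and −0.03 in WT cells, against −0.0020 and −0.0024 over all tested genes. The libraries of FAC and AC did not overlap for 11 carriers in KO cells (38.8% of all tested genes) and for 14 in WT cells (43.2% of all tested genes). On log2(TPM + 1) values tested with limma the called carriers numbered 3 higher and 9 lower in KO cells, and 1 higher and 7 lower in WT cells. All called genes split there into 858 higher and 3804 lower in KO cells, and 576 higher and 1967 lower in WT cells. With only the 2 groups compared in the fit, 6 were called in KO cells (3 higher, 3 lower) and 11 in WT cells (4 higher, 7 lower). The order of the genotypes was then reversed, as it was over all tested genes, with 2199 called in KO and 3345 in WT cells. Without KO AC 1 and KO FAC 4, a choice made after the data were seen, FAC called 18 carriers in KO cells (10 higher, 8 lower), 11 of the 12 among them. Over all genes it then called 4783 of 12394 tested, against 3633 of 12275 in the main fit. Slc25a25, at −0.63 on the log2 scale, and Slc25a42, Ucp2 and Slc25a39, at 0.62, 0.58 and 0.30, were then called (edgeR adjusted p = 0.0185, 0.0245, 0.0194 and 0.00656). FAC called 9 carriers in KO cells without KO AC 1 and KO FAC 6, and 3765 of 12347 tested genes.

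**Figure D2:**
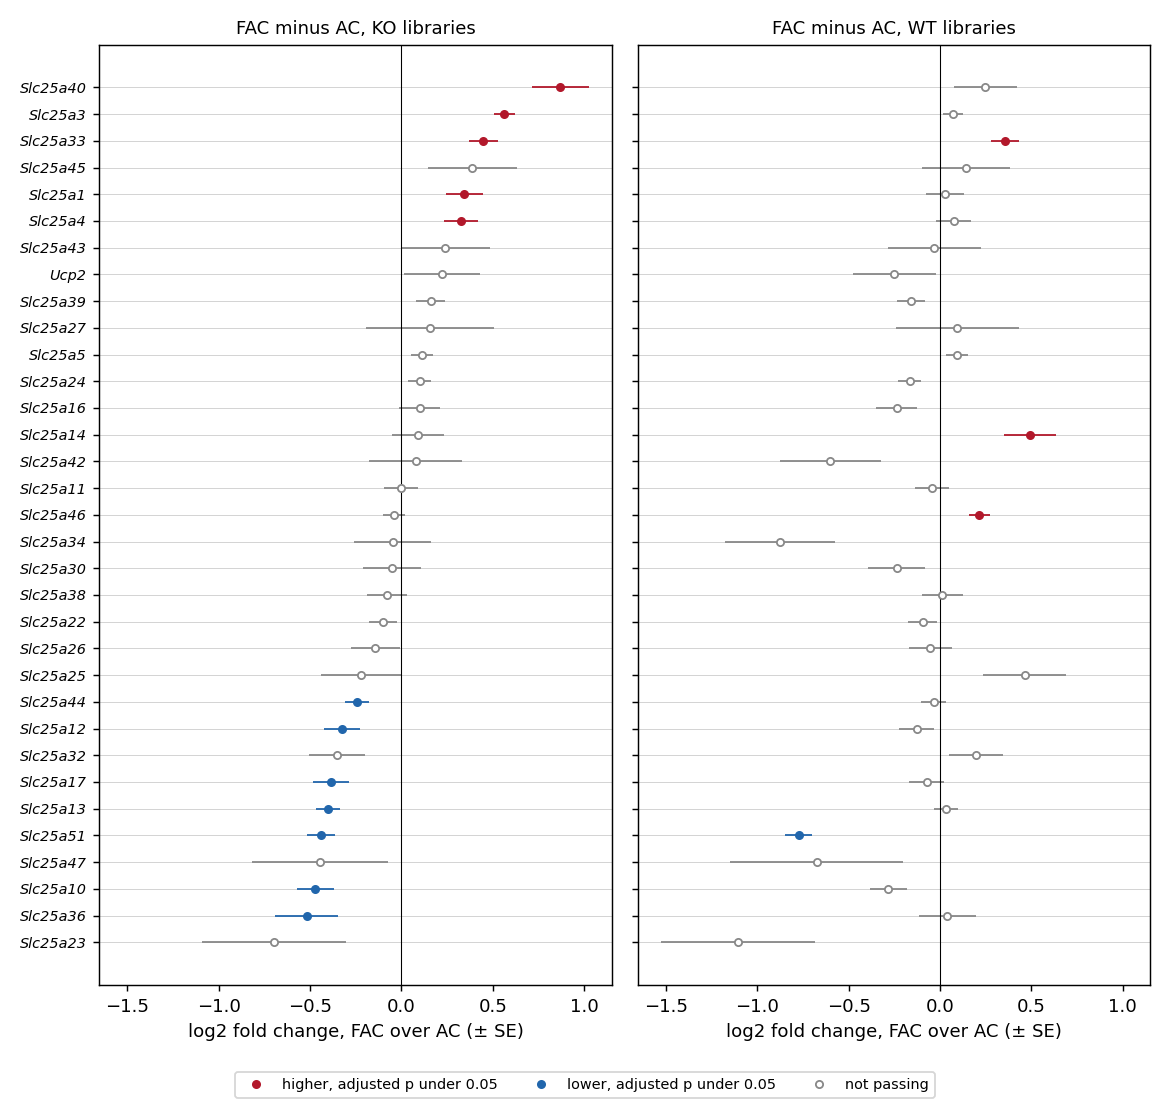
Log2 fold change of FAC over AC with its SE for 33 of the 34 tested carrier genes, in KO libraries (left panel) and WT libraries (right panel), ordered by the value in KO. Filled points passed the test, 12 in KO and 4 in WT, and Slc25a33 and Slc25a51 are filled in both panels.

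The FAC effect itself differed between the genotypes for 2 carriers, Slc25a3 and Slc25a13, which is 5.88% of the tested carriers against 3.15% of all tested genes (1.87% higher, 1.28% lower). Slc25a3 rose under FAC in KO cells by 0.56 on the log2 scale and stood 0.07 higher in WT cells. Slc25a13 fell by 0.40 on the log2 scale in KO cells and stood 0.03 higher in WT cells. Tests of these differences follow with the values of each gene. Without KO AC 1 and KO FAC 4, 11 carriers passed the test of the difference, with these 2, Slc25a1, Slc25a25, Slc25a39, Slc25a42 and Ucp2 among them. So did 1918 of all 12394 genes tested then, against 387 in the main fit. With this removal, treatment in KO cells coincides with the division on the third component.

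Genotype changed more carriers than FAC did. Under FAC 20 of 34 carriers differed between KO and WT cells, 12 higher and 8 lower in KO, and under AC 19 differed, 11 higher and 8 lower in KO. The share was 58.8% of tested carriers under FAC against 49.5% of all tested genes (24.6% higher, 24.9% lower), and 55.9% under AC against 42.9% of all tested genes (21.7% higher, 21.2% lower), so these counts too lie near the background. The genotype and FAC comparisons share libraries, so their values are given side by side and not as separate evidence. In all, 15 carriers were called under both treatments and in the same direction. How many of all tested genes were called in this way was not counted, so this number is no result about the family. Slc25a47 and Slc25a34 had the largest folds of the called carriers. The median log2 fold change of the tested carriers was 0.09 under FAC and 0.05 under AC, against −0.011 and −0.0033 over all tested genes. KO and WT libraries did not overlap for 20 carriers under FAC (59.1% of all tested genes) and 21 under AC (53.0% of all tested genes). On log2(TPM + 1) values the carriers split into 9 higher and 11 lower under FAC and 6 higher and 11 lower under AC. All called genes split there into 1946 higher and 4951 lower under FAC, and 1830 higher and 3824 lower under AC. On log2(FPKM + 1) values the carriers split into 10 and 10 under FAC, and 8 higher and 11 lower under AC. All called genes split there into 2299 higher and 4280 lower under FAC, and 2067 higher and 3375 lower under AC.

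**Figure D3:**
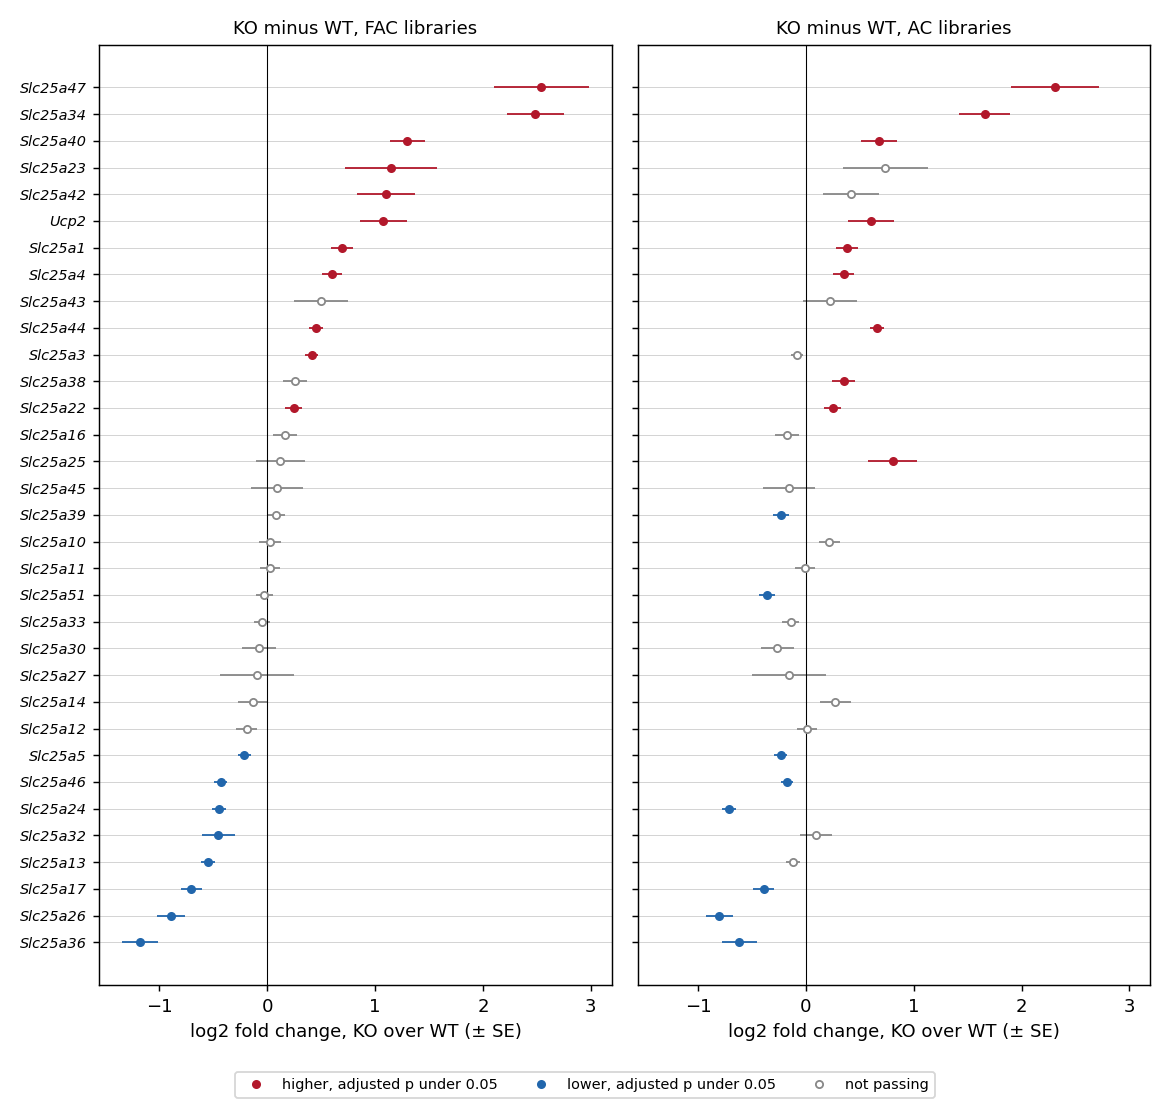
Log2 fold change of KO over WT with its SE for 33 of the 34 tested carrier genes, in FAC libraries (left panel) and AC libraries (right panel), ordered by the value under FAC. Slc25a47 and Slc25a34 have the largest positive values in both panels, and Slc25a36 and Slc25a26 are negative in both.

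Promoters are shown for the 4 genes on which these results turn most, the 2 with the largest folds between genotypes and the 2 whose FAC effect differed. Each is a 300 base window, 250 bases before and 50 after an annotated start, read 5′ to 3′ on the strand of the gene from RefSeq in GRCm38.p6. These starts lie inside the gene positions given below and not at their ends, and for Slc25a47 the whole window lies inside. Slc25a47 is at chr12:108850879-108851178 (plus strand) and Slc25a34 at chr4:141623785-141624084 (minus strand). Slc25a3 is at chr10:91123918-91124217 (minus strand) and Slc25a13 at chr6:6217124-6217423 (minus strand). Capitals mark a nuclear receptor half-site (AGGTCA), the box of letters CCAAT or the NRF1 motif (GCGCA followed after 1 base by GCGC), each searched on both strands, and no marked matches overlap.
Slc25a47: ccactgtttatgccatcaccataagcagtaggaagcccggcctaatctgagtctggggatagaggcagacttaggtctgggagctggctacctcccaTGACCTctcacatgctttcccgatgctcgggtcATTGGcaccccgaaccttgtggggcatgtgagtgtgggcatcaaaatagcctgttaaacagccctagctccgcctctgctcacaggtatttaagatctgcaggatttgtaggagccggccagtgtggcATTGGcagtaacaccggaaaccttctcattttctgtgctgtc
Slc25a34: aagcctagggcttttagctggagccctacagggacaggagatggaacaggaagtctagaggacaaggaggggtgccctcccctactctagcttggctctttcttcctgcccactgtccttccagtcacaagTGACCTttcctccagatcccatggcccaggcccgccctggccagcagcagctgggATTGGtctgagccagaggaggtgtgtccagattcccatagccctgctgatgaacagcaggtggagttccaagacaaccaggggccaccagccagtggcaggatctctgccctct
Slc25a3: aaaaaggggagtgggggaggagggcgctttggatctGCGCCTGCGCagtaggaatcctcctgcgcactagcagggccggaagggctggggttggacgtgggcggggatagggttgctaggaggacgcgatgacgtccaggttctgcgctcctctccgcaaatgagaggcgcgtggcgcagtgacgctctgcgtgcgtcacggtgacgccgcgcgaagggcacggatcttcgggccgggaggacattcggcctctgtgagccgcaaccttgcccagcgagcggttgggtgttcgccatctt
Slc25a13: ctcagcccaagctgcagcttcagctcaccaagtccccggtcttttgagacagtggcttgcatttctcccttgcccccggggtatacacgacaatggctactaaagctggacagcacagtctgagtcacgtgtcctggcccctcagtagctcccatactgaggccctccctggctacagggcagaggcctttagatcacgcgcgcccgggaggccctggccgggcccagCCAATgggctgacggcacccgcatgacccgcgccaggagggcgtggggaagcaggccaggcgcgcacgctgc

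The half-site was in the windows of Slc25a47 and Slc25a34, and no NRF1 motif was found there. Over all members the half-site was in 6 of 44 windows (13.6%), against 16.3% of all 32851 windows of that length. The CCAAT box was in 21 of 44 member windows (47.7%) against 37.4% of all windows, and the NRF1 motif in 2 of 44 (4.55%) against 4.6%. The inverted repeat of the half-site with 1 base between its copies, which contains the half-site and is the arrangement Fxr is best known to bind, was in none of the 44 member windows and in 3 of all 32851. A match is a description of letters and not a binding site. The 44 windows belong to 35 members, some with several starts, so windows are not separate genes. Slc25a25 and Slc25a23 each have more than 1 window among the 21 with a CCAAT box, and those of Slc25a23 overlap. All 32851 windows include chromosome 18, where windows of members were not used. Windows of Slc25a26, Slc25a27, Slc25a32, Slc25a35, Slc25a44 and Slc25a51, and of Slc25a2 and Slc25a46, were not used here.

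Among the carriers of adenine nucleotides and phosphate, Slc25a3 rose under FAC in KO cells. Slc25a3 (chromosome 10, 91116574 to 91124046) brings phosphate into the matrix for ATP synthesis. Nr1h4, the gene deleted in KO cells, lies on chromosome 10 too, and whether this bears on the values of Slc25a3 was not tested. Its level was 513, 524 and 520.0 CPM in the KO FAC libraries, against 371, 351 and 331 in the KO AC libraries. In WT cells it was 398, 387 and 387 CPM under FAC, against 355, 381 and 379 under AC. The KO FAC libraries lay above all 9 others, which spanned 331 to 398 CPM, and the WT FAC libraries lay just above the WT AC libraries. FAC raised it by 47.8% in KO cells (0.56 on the log2 scale with an SE of 0.06, edgeR adjusted p = 2.07e-05). The value in WT cells was 0.07 ± 0.06 (edgeR adjusted p = 0.416), and ± stands for the SE wherever a log2 value is given. The difference of the FAC effects was 0.49 ± 0.08 (KO minus WT, edgeR adjusted p = 0.00749). KO exceeded WT by 0.41 ± 0.06 under FAC (edgeR adjusted p = 4.98e-05). Under AC the value was −0.08 ± 0.06 (edgeR adjusted p = 0.258), which passed on log2(FPKM + 1) values at −0.16 (limma adjusted p = 0.0157) and on TPM values.

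The 2 ADP/ATP exchangers had opposite genotype differences. Slc25a5, the isoform of many dividing and epithelial tissues, had 435, 406 and 388 CPM in KO FAC and 379, 384 and 375 in KO AC libraries. It had 492, 476 and 457 CPM in WT FAC and 419, 464 and 455 in WT AC libraries. KO libraries lay below WT libraries of the same treatment in every case, by 0.21 ± 0.06 on the log2 scale under FAC and 0.23 ± 0.06 under AC (edgeR adjusted p = 0.00956 and 0.0072). Slc25a4, the isoform best known from heart and muscle, had 44.4, 49.6 and 55.5 CPM in KO FAC and 41.8, 41.0 and 36.5 in KO AC libraries. It had 31.2, 31.8 and 35.7 CPM in WT FAC and 29.4, 32.7 and 31.5 in WT AC libraries. KO exceeded WT without overlap, by 0.60 ± 0.10 under FAC and 0.35 ± 0.10 under AC (log2 fold changes, edgeR adjusted p = 0.000179 and 0.0099), the second call being lost on TPM values (adjusted p = 0.0635). Within a library Slc25a5 was 6.98 ± 1.18 times Slc25a4 in KO FAC and 8.02 ± 0.52 times in KO AC, against 12.2 ± 1.30 times in WT FAC and 11.9 to 12.1 times in WT AC (ratio of FPKM, SD, n = 3 each). The 2 coding sequences are close relatives, so the split of shared reads by the authors' counting is uncertain. FAC raised Slc25a4 in KO cells by 0.33 ± 0.09 (edgeR adjusted p = 0.0203), a call lost on FPKM and TPM values, where the adjusted p was 0.0677 and 0.262, and on removal of KO AC 3, of KO FAC 5 or 6, or of both KO AC 1 and KO FAC 6 (adjusted p = 0.0535).

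The 3 calcium-regulated ATP-Mg/phosphate carriers differed from each other. Slc25a24 had 93.5, 97.1 and 107 CPM in KO FAC and 94.4, 90.4 and 93.0 in KO AC libraries. It had 136, 129 and 140.4 CPM in WT FAC and 156, 149 and 150.2 in WT AC libraries. KO libraries lay below all WT libraries, by 0.44 ± 0.06 on the log2 scale under FAC and 0.71 ± 0.06 under AC (edgeR adjusted p = 7.69e-05 and 1.54e-06). Slc25a23 had 10.6, 20.0 and 24.0 CPM in KO FAC and 46.8, 19.7 and 22.2 in KO AC libraries. It had 7.96, 5.31 and 11.5 CPM in WT FAC and 15.5, 20.2 and 17.3 in WT AC libraries. Library KO AC 1 held more than the other KO libraries, and KO FAC 4 lay within the WT FAC range. Slc25a23 was higher in KO than WT under FAC by 1.15 ± 0.42 (edgeR adjusted p = 0.0462), a call lost without WT FAC 4, WT FAC 5, KO FAC 5 or KO FAC 6 (adjusted p 0.101 to 0.139). It was also lost without both KO AC 1 and KO FAC 6 (0.89, edgeR adjusted p = 0.0576). Further losses came with no filter (edgeR adjusted p = 0.0833), with library number as a block (0.0517) and on TPM values (limma adjusted p = 0.0512).

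Slc25a25 had 42.6, 33.2 and 20.1 CPM in KO FAC and 28.7, 42.5 and 40.3 in KO AC libraries. It had 27.5, 29.4 and 31.2 CPM in WT FAC and 19.03, 21.1 and 23.6 in WT AC libraries. The spread among KO libraries exceeded that among WT libraries. KO exceeded WT under AC by 0.81 ± 0.23 on the log2 scale (edgeR adjusted p = 0.0136), without overlap, and removing WT AC 1 or KO AC 2 ended the call (adjusted p = 0.0583 and 0.0523). Under FAC the value was 0.12 ± 0.22 (edgeR adjusted p = 0.673). It was −0.14 without KO AC 1 and KO FAC 4 (adjusted p = 0.527), and 0.37 and called without KO AC 1 and KO FAC 6 (adjusted p = 0.0149). FAC gave 0.46 ± 0.23 in WT cells, without overlap (edgeR adjusted p = 0.187), which passed with only the WT groups in the fit (adjusted p = 0.00353). Slc25a31, the ADP/ATP exchanger of testis, was among the untested genes. In this group FAC called 2 of 6 tested genes in KO cells, both higher, and 0 of 6 in WT cells by edgeR and by DESeq2, where 2 had an unadjusted edgeR p under 0.05. Over all tested genes these comparisons called 29.6% and 17.2%. Genotype called 3 higher and 2 lower under FAC, and 2 higher and 2 lower under AC, against 49.5% and 42.9% of all tested genes. Slc25a23 and Slc25a25 share 4.22% and 9.2% of their exon bases with Gm17168 and Naif1 on the opposite strand. No source used here says whether the counting used strand, so reads of such partners cannot be told apart.

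**Figure D4:**
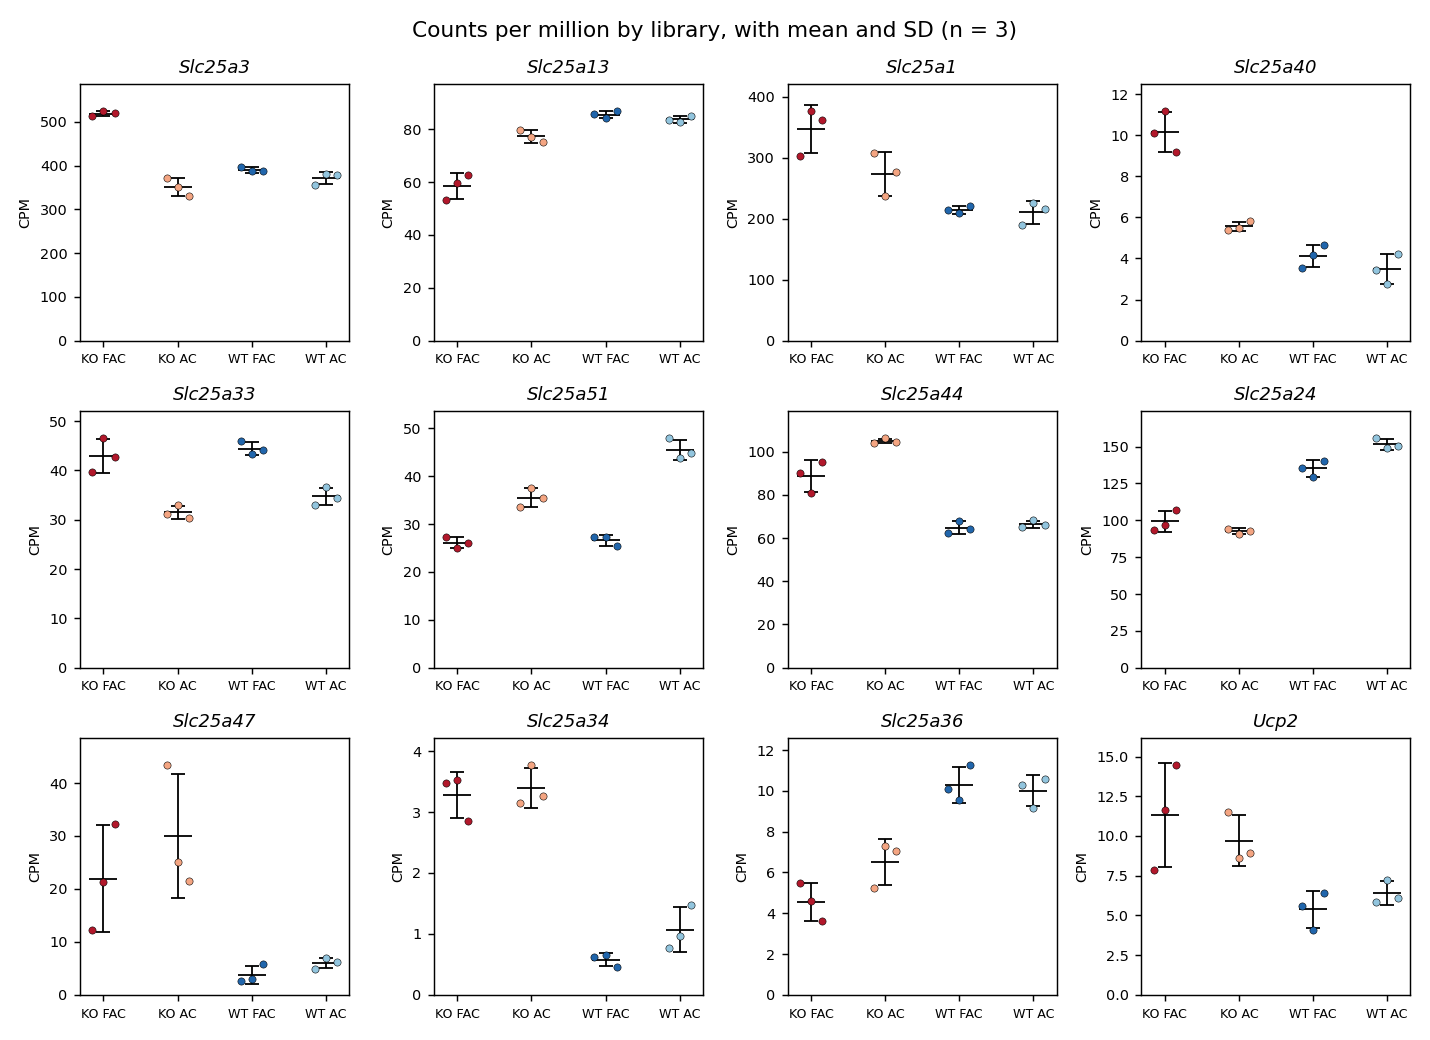
CPM of 12 carrier genes in every library (points) with the group mean and SD (bars, n = 3), in the order KO FAC, KO AC, WT FAC and WT AC, on axes from 0. Slc25a3 stands at 513 CPM or more in the 3 KO FAC libraries and at 398 or less in the other 9, and Slc25a47 and Slc25a34 separate KO from WT libraries.

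Of the di- and tricarboxylate carriers, the citrate carrier was higher in KO cells and the dicarboxylate carrier fell under FAC in KO cells. Slc25a1, which exports citrate for fatty acid and sterol synthesis, had 302, 376 and 362 CPM in KO FAC and 307, 236 and 276 in KO AC libraries. It had 214, 208 and 220.0 CPM in WT FAC and 189, 226 and 215 in WT AC libraries. All KO libraries lay above all WT libraries, by 0.70 ± 0.10 on the log2 scale under FAC and 0.38 ± 0.10 under AC (edgeR adjusted p = 0.0001 and 0.00946). Under AC the call was lost on TPM values (adjusted p = 0.0635). FAC in KO cells gave 0.34 ± 0.10 (edgeR adjusted p = 0.0225). KO FAC 4 lay below KO AC 1. The call was lost on FPKM values (adjusted p = 0.0784), on TPM values and when any of libraries 2 and 3 of KO AC or 5 and 6 of KO FAC was removed. Acly, which splits the exported citrate, rose under FAC in KO cells by 0.45 ± 0.06 and was higher in KO than WT by 0.86 ± 0.06 under FAC and 0.51 ± 0.06 under AC (edgeR adjusted p = 0.000241, 1.81e-07 and 3.6e-05).

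Slc25a10, which exchanges malate or succinate for phosphate, had 32.1, 39.1 and 41.5 CPM in KO FAC, against 57.8, 46.6 and 51.8 in KO AC libraries. WT libraries had 35.8, 37.0 and 37.5 CPM under FAC, against 43.4, 47.7 and 43.1 under AC. FAC libraries lay below AC libraries in both genotypes. In KO cells it fell by 0.47 ± 0.10 on the log2 scale (edgeR adjusted p = 0.004), and in WT cells the value was −0.28 ± 0.10 (edgeR adjusted p = 0.0724), which passed the test with only the 2 WT groups in the fit (adjusted p = 0.00891). The difference between the genotypes was −0.19 ± 0.14 (edgeR adjusted p = 0.507). Slc25a10 shares 11.3% of its exon bases with Gm11788 on the opposite strand. Slc25a11, the oxoglutarate carrier of the malate-aspartate shuttle, had 48.6, 58.2 and 57.3 CPM in KO FAC and 61.2, 53.3 and 50.03 in KO AC libraries. It had 53.2, 52.5 and 55.4 CPM in WT FAC and 50.5, 58.7 and 56.5 in WT AC libraries, the 4 groups overlapped, and it passed none of the 5 tests.

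Among the amino acid and glutathione carriers, the 2 aspartate/glutamate carriers fell under FAC in KO cells. Slc25a13 (chromosome 6, 6041218 to 6217304), also called citrin, is the liver form and supplies aspartate for urea synthesis and the malate-aspartate shuttle. Its level was 53.2, 59.8 and 62.6 CPM in the KO FAC libraries, against 79.7, 77.1 and 75.0 in the KO AC libraries. In WT cells it was 85.6, 84.1 and 86.8 CPM under FAC, against 83.5, 82.6 and 85.1 under AC. The KO FAC libraries lay below all 9 others, and the WT groups overlapped. FAC lowered it by 24.3% in KO cells (−0.40 ± 0.07 on the log2 scale, edgeR adjusted p = 0.000799), and the WT value was 0.03 ± 0.07 (edgeR adjusted p = 0.798). The difference was −0.43 ± 0.09 (KO minus WT, edgeR adjusted p = 0.0291). The difference no longer passed without WT AC 2, WT AC 3, any 1 WT FAC library, KO AC 2 or KO FAC 5, at adjusted p values of 0.06 to 0.0791 and values of −0.42 to −0.45. KO was lower than WT by 0.55 ± 0.07 on the log2 scale under FAC (edgeR adjusted p = 1.91e-05), and the value under AC was −0.12 ± 0.07 (edgeR adjusted p = 0.176), which passed on FPKM values (−0.20, limma adjusted p = 0.029).

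Slc25a12, the form of brain and muscle, had 19.1, 22.9 and 19.3 CPM in KO FAC, against 28.2, 23.2 and 25.4 in KO AC libraries. In WT cells it had 22.4, 24.6 and 22.8 CPM under FAC, against 24.9, 25.4 and 26.0 under AC. The groups came close without overlap in both genotypes. It fell under FAC in KO cells by 0.33 ± 0.10 on the log2 scale (edgeR adjusted p = 0.0228), and removing any of KO AC 1, KO AC 3, KO FAC 4 and KO FAC 6 ended the call. The value was −0.20 without both KO AC 1 and KO FAC 4 and −0.21 without both KO AC 1 and KO FAC 6 (edgeR adjusted p = 0.152 and 0.171). Of 6 enzymes of the malate-aspartate and glycerol phosphate shuttles, FAC called 3 higher in KO cells (29.6% of all tested genes were called) and 2 higher in WT cells (17.2%). In KO cells Got2, Gpd1 and Gpd2 did not pass, at 0.13, 0.02 and −0.19. Got1 rose by 0.46 ± 0.06, Mdh2 by 0.44 ± 0.05 and Mdh1 by 0.24 ± 0.09 (edgeR adjusted p = 0.000239, 9.05e-05 and 0.0499). In WT cells Got1 and Mdh2 rose by 0.24 ± 0.06 and 0.19 ± 0.05 (edgeR adjusted p = 0.0234 and 0.025), and the difference between the genotypes passed the edgeR test for 0 of the 6 shuttle enzymes, 2 of which had an unadjusted p under 0.05.

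Of the glutathione carriers the minor one changed most. Slc25a40, a close relative of Slc25a39, had 10.1, 11.2 and 9.20 CPM in KO FAC, against 5.39, 5.48 and 5.82 in KO AC libraries. WT libraries had 3.56, 4.16 and 4.65 CPM under FAC, against 3.44, 2.76 and 4.21 under AC. The 3 KO FAC libraries lay above the 3 KO AC libraries, and these above all WT libraries. FAC raised it 1.83-fold in KO cells (log2 fold change 0.87 ± 0.16, edgeR adjusted p = 0.00129), and the WT value was 0.25 ± 0.17 (edgeR adjusted p = 0.354). The difference was 0.62 ± 0.23 (edgeR adjusted p = 0.164). KO was 2.46-fold WT under FAC and 1.60-fold under AC (log2 fold changes 1.30 ± 0.16 and 0.68 ± 0.17, edgeR adjusted p = 2.09e-05 and 0.00549). These folds were smaller on log2(FPKM + 1) values, where the pseudocount is close to the level of the gene.

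Slc25a39 had 327, 375 and 372 CPM in KO FAC and 349.9, 292 and 319.7 in KO AC libraries. It had 333, 325 and 353 CPM in WT FAC and 355, 392 and 381 in WT AC libraries. It was lower in KO than WT under AC by 0.23 ± 0.08 on the log2 scale (edgeR adjusted p = 0.0274), which did not pass when WT AC 2, WT AC 3, KO AC 2 or KO AC 3 was removed. Under FAC the value was 0.09 ± 0.08 (edgeR adjusted p = 0.366). FAC gave −0.16 ± 0.08 in WT cells (edgeR adjusted p = 0.182), which passed with only the WT groups in the fit (adjusted p = 0.0469) and on TPM values at −0.29 (limma adjusted p = 0.0191). Its FPKM was 62.0 ± 7.79 times that of Slc25a40 in KO FAC and 102 ± 10.7 times in KO AC, against 143 ± 17.2 times in WT FAC and 196 ± 45.9 times in WT AC libraries (SD, n = 3 each). Gclc, the first enzyme of glutathione synthesis, fell under FAC by 1.30 ± 0.10 on the log2 scale in KO cells and 0.64 ± 0.10 in WT cells (edgeR adjusted p = 5.45e-06 and 0.00099), a difference of −0.66 ± 0.14 (edgeR adjusted p = 0.0323).

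Slc25a44, the carrier of branched-chain amino acids, had 90.0, 80.6 and 95.4 CPM in KO FAC and 104, 106 and 105 in KO AC libraries. It had 62.4, 68.0 and 64.2 CPM in WT FAC and 65.1, 68.3 and 65.9 in WT AC libraries. All KO libraries lay above all WT libraries, by 0.45 ± 0.07 on the log2 scale under FAC and 0.66 ± 0.07 under AC (edgeR adjusted p = 0.000123 and 6.14e-06). FAC lowered it in KO cells by 0.24 ± 0.07 on the log2 scale (edgeR adjusted p = 0.0167), a call lost without KO FAC 5 (adjusted p = 0.0807) and with only the KO groups in the fit. Slc25a22, a glutamate carrier, had 32.4, 32.8 and 34.3 CPM in KO FAC and 37.6, 34.1 and 35.0 in KO AC libraries. It had 28.8, 26.4 and 28.7 CPM in WT FAC and 27.9, 31.4 and 30.3 in WT AC libraries. It was 0.25 ± 0.08 higher in KO under each treatment (log2 fold change, edgeR adjusted p = 0.0171 under FAC and 0.0185 under AC), without overlap, and both calls were lost on FPKM and TPM values. The call under FAC also ended without WT FAC 5 or KO FAC 6 (adjusted p = 0.0791 and 0.0542). The call under AC also ended without WT AC 1 or KO AC 1 (adjusted p = 0.0787 and 0.0599), with only the AC groups in the fit (0.0507), and on joint removal of KO AC 1 with KO FAC 4 (0.0581) or with KO FAC 6 (0.0624).

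Slc25a38, the glycine carrier that feeds heme synthesis, had 14.3, 12.3 and 12.7 CPM in KO FAC and 13.4, 15.3 and 12.9 in KO AC libraries. It had 12.1, 10.3 and 10.4 CPM in WT FAC and 10.3, 10.98 and 11.4 in WT AC libraries. KO libraries lay above WT libraries of the same treatment. It passed the test under AC (0.35 ± 0.11, edgeR adjusted p = 0.0191), a call lost on FPKM and TPM values and without WT AC 1 or KO AC 2, and under FAC the value was 0.26 ± 0.11 (edgeR adjusted p = 0.0657). Alas1, the enzyme that uses this glycine, was higher in KO by 0.87 ± 0.09 under FAC and 0.73 ± 0.09 under AC (edgeR adjusted p = 5.06e-06 and 3.4e-05). Among the 7 tested carriers of this group FAC called 1 higher and 3 lower in KO cells and 0 in WT cells by edgeR and by DESeq2, where 0 had an unadjusted edgeR p under 0.05, against 29.6% and 17.2% of all tested genes. Genotype called 3 higher and 1 lower under FAC (49.5% of all tested genes), and 4 higher and 1 lower under AC (42.9%).

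The carriers of cofactors and pyrimidine nucleotides held the 2 genes that FAC changed in both genotypes. Slc25a51, which brings NAD into the matrix, had 27.3, 24.98 and 26.1 CPM in KO FAC, against 33.5, 37.5 and 35.4 in KO AC libraries. In WT cells it had 27.2, 27.4 and 25.4 CPM under FAC, against 47.9, 43.9 and 44.9 under AC. The 6 FAC libraries lay between 24.98 and 27.4 CPM, below all AC libraries, and KO AC lay below WT AC. It fell under FAC by 0.44 ± 0.08 on the log2 scale in KO cells and 0.77 ± 0.08 in WT cells (edgeR adjusted p = 0.00109 and 2.66e-05). The difference between the genotypes was 0.33 ± 0.11 (edgeR adjusted p = 0.111). It was lower in KO than WT under AC by 0.36 ± 0.08 (edgeR adjusted p = 0.00179), and under FAC the value was −0.03 ± 0.08 (edgeR adjusted p = 0.791). Both falls under FAC passed the test in all alternatives that were run. Slc25a51 shares 2.82% of its exon bases with Gm25692 on the same strand.

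Slc25a33 had 39.7, 46.5 and 42.7 CPM in KO FAC, against 31.2, 33.0 and 30.3 in KO AC libraries. WT libraries had 45.9, 43.3 and 44.0 CPM under FAC, against 33.0, 36.6 and 34.5 under AC. FAC libraries lay above AC libraries in both genotypes. It rose by 0.45 ± 0.08 on the log2 scale in KO cells and 0.35 ± 0.08 in WT cells (edgeR adjusted p = 0.00112 and 0.00719), and it passed the test in all alternatives. The difference was 0.09 ± 0.11 (edgeR adjusted p = 0.699). Slc25a33 shares 14.9% of its exon bases with Gm13068 on the opposite strand.

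Slc25a36, the other pyrimidine nucleotide carrier, had 5.49, 4.58 and 3.61 CPM in KO FAC and 5.22, 7.31 and 7.04 in KO AC libraries. It had 10.1, 9.53 and 11.2 CPM in WT FAC and 10.3, 9.14 and 10.6 in WT AC libraries. All KO libraries lay below all WT libraries, and KO FAC overlapped KO AC through KO FAC 4 and KO AC 1. It was lower in KO by 1.18 ± 0.17 on the log2 scale under FAC and 0.62 ± 0.16 under AC (edgeR adjusted p = 7.17e-05 and 0.00735). FAC lowered it in KO cells by 0.52 ± 0.17 (edgeR adjusted p = 0.0367), a call lost when any of libraries 2 and 3 of KO AC or 5 and 6 of KO FAC was removed (adjusted p 0.0846 to 0.135). The FPKM of Slc25a33 was 26.2 ± 5.74 times that of Slc25a36 in KO FAC and 12.8 ± 1.92 times in KO AC, against 11.7 ± 0.79 times in WT FAC and 9.29 ± 1.38 times in WT AC libraries.

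Slc25a26, which imports S-adenosylmethionine, had 3.84, 4.05 and 4.37 CPM in KO FAC and 4.07, 4.82 and 4.65 in KO AC libraries. It had 7.73, 7.89 and 7.17 CPM in WT FAC and 8.40, 7.68 and 7.55 in WT AC libraries. All KO libraries lay below all WT libraries, by 0.89 ± 0.13 on the log2 scale under FAC and 0.80 ± 0.12 under AC (edgeR adjusted p = 7.22e-05 and 0.000204), and these calls passed in all alternatives. Slc25a26 shares 7.23% of its exon bases with Lrig1 on the opposite strand, and no alternative addressed this overlap. Mat1a, the liver enzyme that makes S-adenosylmethionine, was higher in KO by 2.52 ± 0.10 under FAC and 1.32 ± 0.10 under AC (edgeR adjusted p = 3.28e-10 and 2.29e-07). FAC raised Mat1a by 0.56 ± 0.09 in KO cells, it fell by 0.64 ± 0.10 on the log2 scale in WT cells, and the difference was 1.20 ± 0.14 (edgeR adjusted p = 0.000912, 0.000978 and 0.000791).

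Slc25a17, a peroxisomal member that carries coenzyme A and other cofactors, had 39.6, 40.6 and 38.8 CPM in KO FAC and 61.0, 46.0 and 48.3 in KO AC libraries. It had 63.9, 60.6 and 69.4 CPM in WT FAC and 66.1, 71.5 and 66.0 in WT AC libraries. KO libraries lay below WT libraries of the same treatment, by 0.70 ± 0.10 on the log2 scale under FAC and 0.39 ± 0.10 under AC (edgeR adjusted p = 5.98e-05 and 0.00547). It fell under FAC in KO cells by 0.38 ± 0.10 (edgeR adjusted p = 0.0103). Without KO AC 1 and KO FAC 6 that fall was 0.23 and the adjusted p 0.0659.

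Slc25a42, a mitochondrial coenzyme A carrier, had 5.18, 7.85 and 8.79 CPM in KO FAC and 9.75, 4.82 and 6.11 in KO AC libraries. It had 3.61, 3.50 and 3.04 CPM in WT FAC and 4.04, 5.14 and 6.24 in WT AC libraries. Under FAC the KO libraries lay above the WT libraries (1.10 ± 0.27, edgeR adjusted p = 0.00449), and under AC the groups overlapped. FAC gave −0.60 ± 0.28 in WT cells, without overlap (edgeR adjusted p = 0.157), which passed with only the WT groups in the fit (adjusted p = 0.0272). In KO cells the value was 0.08 ± 0.25 (edgeR adjusted p = 0.840).

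Slc25a32, linked to folate and FAD import, had 13.7, 9.88 and 9.66 CPM in KO FAC and 13.1, 15.2 and 14.1 in KO AC libraries. It had 17.2, 13.1 and 15.3 CPM in WT FAC and 15.3, 11.8 and 12.6 in WT AC libraries. It was lower in KO under FAC by 0.45 ± 0.15 on the log2 scale (edgeR adjusted p = 0.0234), although KO FAC 4 lay above WT FAC 5. The call was lost without WT FAC 4, WT FAC 6, KO FAC 5 or KO FAC 6, and without both KO AC 1 and KO FAC 6 (−0.36, adjusted p = 0.0723). With only the FAC groups in the fit the call was lost as well (edgeR adjusted p = 0.0549). Slc25a16 averaged 7.59 to 9.18 FPKM in the groups and passed none of the tests. Of the 9 tested genes of this group FAC called 1 higher and 3 lower in KO cells, and 1 higher and 1 lower in WT cells, beside 29.6% and 17.2% of all tested genes. Genotype called 2 higher and 4 lower under FAC, and 1 higher and 4 lower under AC, beside 49.5% and 42.9% of all tested genes.

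Ucp2 was the one expressed uncoupling protein. It had 7.87, 11.6 and 14.4 CPM in KO FAC and 11.5, 8.63 and 8.96 in KO AC libraries. It had 5.59, 4.11 and 6.42 CPM in WT FAC and 5.83, 7.25 and 6.07 in WT AC libraries. KO libraries lay above WT libraries of the same treatment, by 1.08 ± 0.22 on the log2 scale under FAC and 0.60 ± 0.22 under AC (edgeR adjusted p = 0.00125 and 0.0379). Under AC it did not pass on FPKM and TPM values or on removal of library 1 or 3 of either genotype (adjusted p 0.0553 to 0.128), nor without both KO AC 1 and KO FAC 6 (0.46, adjusted p = 0.0682). Ucp2 is known from immune cells as well as from hepatocytes. The macrophage markers were higher in KO AC than in WT AC libraries and overlapped between KO FAC and WT FAC. The leukocyte markers were lower in KO, at 0.01 to 0.65 FPKM in KO FAC against 0.73 to 1.25 in WT FAC libraries. Under AC they were at 0.09 to 0.11 FPKM in KO against 0.30 to 0.97 in WT libraries. The part of these cells in the level of Ucp2 was not tested. Ucp2 shares 7.65% of its exon bases with Dnajb13 on the opposite strand.

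Slc25a14, a relative of the uncoupling proteins, had 5.61, 6.28 and 6.35 CPM in KO FAC and 6.60, 4.93 and 5.58 in KO AC libraries. In WT cells it had 6.55, 7.06 and 6.31 CPM under FAC, against 5.18, 4.33 and 4.65 under AC. It rose under FAC in WT cells by 0.49 ± 0.14 on the log2 scale, without overlap (edgeR adjusted p = 0.0286), and the call ended when WT AC 2, WT AC 3 or any 1 WT FAC library was removed (adjusted p 0.055 to 0.105). In KO cells the value was 0.09 ± 0.14 (edgeR adjusted p = 0.657). Slc25a30 averaged 11.4 to 15.9 FPKM and Slc25a27 0.293 to 0.393 FPKM in the groups, and neither passed a test.

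Among the carriers given no substrate here, Slc25a47 and Slc25a34 were higher in KO cells. Slc25a47 (chromosome 12, 108849833 to 108856815) is known as a carrier enriched in liver. It had 12.2, 21.3 and 32.3 CPM in the KO FAC libraries, against 2.60, 3.01 and 5.74 in the WT FAC libraries. Under AC it had 43.3, 25.02 and 21.5 CPM in KO libraries, against 4.96, 6.87 and 6.24 in WT libraries. Every KO library lay above every WT library, while the range within each KO group exceeded the range over all WT libraries. KO was 5.82-fold WT under FAC and 4.97-fold under AC (log2 fold changes 2.54 ± 0.44 and 2.31 ± 0.41, edgeR adjusted p = 0.000909 and 0.00143). FAC gave −0.45 ± 0.37 in KO cells (edgeR adjusted p = 0.396) and −0.67 ± 0.47 in WT cells (edgeR adjusted p = 0.372), and without KO AC 1 and KO FAC 4 the value in KO cells was 0.22 (edgeR adjusted p = 0.576).

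Slc25a34 (chromosome 4, 141618819 to 141623891) had 3.48, 3.53 and 2.85 CPM in the KO FAC libraries, against 0.621, 0.657 and 0.459 in the WT FAC libraries. Under AC it had 3.15, 3.76 and 3.26 CPM in KO libraries, against 0.763, 0.974 and 1.48 in WT libraries. The KO libraries formed a narrow range well above the WT libraries. KO was 5.60-fold WT under FAC and 3.15-fold under AC (log2 fold changes 2.49 ± 0.27 and 1.66 ± 0.24, edgeR adjusted p = 5.87e-06 and 0.000109). On log2(FPKM + 1) values these folds were smaller and the calls the same. Its level was low, at 1.20 ± 0.117 FPKM in KO FAC and 1.32 ± 0.112 in KO AC, against 0.230 ± 0.0436 in WT FAC and 0.443 ± 0.150 in WT AC libraries (SD, n = 3 each).

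Slc25a46, an outer membrane member that acts in mitochondrial fission and fusion, had 59.1, 58.3 and 60.9 CPM in KO FAC and 62.4, 60.0 and 61.2 in KO AC libraries. It had 80.05, 79.4 and 81.1 CPM in WT FAC and 72.6, 67.2 and 67.5 in WT AC libraries. KO libraries lay below all WT libraries, by 0.43 ± 0.06 on the log2 scale under FAC and 0.18 ± 0.06 under AC (edgeR adjusted p = 4.99e-05 and 0.0277). The call under AC was lost without WT AC 1, KO AC 2 or KO AC 3. It was also lost with no filter (edgeR adjusted p = 0.0565), with only the AC groups in the fit (0.0726) and with library number as a block (0.066). FAC raised Slc25a46 in WT cells by 0.22 ± 0.06 (edgeR adjusted p = 0.0221), a call lost on FPKM and TPM values and without WT AC 2, WT AC 3 or any 1 WT FAC library. Slc25a46 shares 8.56% of its exon bases with B930094E09Rik on the opposite strand. Slc25a43 averaged 1.53 to 2.02 FPKM and Slc25a45 6.95 to 8.76 FPKM in the groups, and neither passed a test. Of the 5 tested genes of this group genotype called 2 higher and 1 lower under each treatment, against 49.5% of all tested genes under FAC and 42.9% under AC.

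Other mitochondrial genes were counted by list. Among 15 tested transporters and channels outside the family, genotype called 5 higher and 4 lower under FAC (49.5% of all tested genes), and 4 higher and 5 lower under AC (42.9%). Sfxn3 and Sfxn1, members of the sideroflexin family of serine carriers, were lower in KO by 1.36 ± 0.12 and 1.16 ± 0.09 on the log2 scale under FAC, and by 1.58 ± 0.12 and 1.11 ± 0.09 under AC. Mpc1, a subunit of the pyruvate carrier, was higher in KO by 0.87 ± 0.09 under FAC and 0.99 ± 0.09 under AC (edgeR adjusted p = 5.06e-06 and 2.15e-06). FAC called 2 higher and 3 lower of this list in KO cells (29.6% of all tested genes), and 1 higher and 2 lower in WT cells (17.2%).

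Of the 13 genes that import carrier proteins into mitochondria, FAC called 1 higher and 1 lower in KO cells (15.4%, against 29.6% of all tested genes) and 2 higher in WT cells (15.4%, against 17.2%). The higher gene in both genotypes was Tomm20, an outer membrane receptor, at 0.38 ± 0.07 in KO and 0.28 ± 0.07 in WT cells (log2 fold changes, edgeR adjusted p = 0.00117 and 0.0121). Genotype called 1 higher and 4 lower of this list under FAC (38.5%, against 49.5% of all tested genes), and 2 higher and 1 lower under AC (23.1%, against 42.9%). Of 8 calcium uptake genes FAC called Mcu and Mcub higher in KO cells (0.37 ± 0.08 and 0.58 ± 0.12, edgeR adjusted p = 0.00469 and 0.00254), and it called 1 of the 8 higher in WT cells, beside 29.6% and 17.2% of all tested genes. Genotype called 4 of these higher under FAC and 0 of 8 under AC by edgeR, where 1 had an unadjusted p under 0.05, beside 49.5% and 42.9% of all tested genes. Of 15 tested enzymes that make or use carried substrates, FAC called 4 higher and 2 lower in KO cells (29.6% of all tested genes), and 5 lower in WT cells (17.2%). Genotype called 8 higher and 3 lower of these (73.3%) under each treatment, against 49.5% of all tested genes under FAC and 42.9% under AC.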

How the data were processed

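The RNA of 12 libraries of mouse primary hepatocytes was prepared for BGISEQ-500 sequencing, per the labels' protocols. The submitters' processing notes name RSEM, mm10 and GRCm38.p6, while aligner, annotation release, strand setting and filters are not given in the sources used here. Per gene, the authors deposited estimated counts without normalization, FPKM values scaled by length and depth, and TPM values. There were 8 more numeric columns that match no library here, and they were not used. Groups follow the labelled genotype and treatment.

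Estimated counts were rounded to whole numbers, and library sizes were scaled by TMM. With edgeR 4.0.16 (R 4.3.3), filterByExpr at a minimum count of 10 left 12275 of 16728 genes. A single quasi-likelihood model (robust, with trended dispersion) covered all 4 groups. Its 5 contrasts were FAC against AC in KO and in WT cells, KO against WT under FAC and under AC, and the difference of the FAC effects (KO minus WT). P-values were adjusted over all tested genes (Benjamini-Hochberg). The SE is the absolute log2 fold change over the square root of the F statistic. The model was also run on simulated counts with few changed genes and no division among KO libraries. That setting is unlike these data, and no accuracy is claimed from it.

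Alternatives were median-of-ratios scaling, no filter, DESeq2 1.42.0, limma 3.58.1 on log2(FPKM + 1), log2(FPKM + 0.1) and log2(TPM + 1), only the 2 groups compared, a replicate block, and each library left out. The block for the difference, and fits without KO AC 1 and KO FAC 4 or without KO AC 1 and KO FAC 6, were added after the data were seen. Values in every library are given for a fixed list of 14 carriers and, per comparison, for up to 25 called carriers with a mean of at least 1 FPKM in a compared group. Other lists have up to 3 called genes named per comparison, by size of fold, apart from Acly, Alas1 and the value of Mpc1 under FAC, which were chosen after their values were seen. The members and the lists of roles, other genes and markers were chosen with earlier results of these data known. The values of 1 tested carrier and of a few other genes are not reported here, though the counts include them. Depth ranged from 16464494 to 18335700 estimated reads, which limits the precision of the carriers with few reads.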

Additional observations from a re-analysis of the deposited data

Results flagged for a closer look

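The effect of FAC differed between the genotypes for Slc25a3 and Slc25a13, by a test of the difference itself over all tested genes. Slc25a3 and the deleted Nr1h4 are both on chromosome 10, and whether this bears on the result was not tested. For Slc25a3, the phosphate carrier, the difference was 0.49 on the log2 scale (KO minus WT), with 519 ± 5.90 CPM in KO FAC against 351 ± 19.9 in KO AC, and 390.4 ± 6.46 in WT FAC against 372 ± 14.3 in WT AC libraries (SD, n = 3 each). For Slc25a13, the liver aspartate/glutamate carrier, the difference was −0.43, with 58.5 ± 4.83 CPM in KO FAC against 77.3 ± 2.35 in KO AC, and 85.5 ± 1.37 in WT FAC against 83.7 ± 1.26 in WT AC libraries. The difference for Slc25a13 did not pass in 7 of the 12 fits that left out 1 library (edgeR adjusted p 0.06 to 0.0791), and that for Slc25a3 passed in all 12. Without KO AC 1 and KO FAC 4 the differences were 0.55 and −0.33 (edgeR adjusted p = 0.00153 and 0.0237). Without KO AC 1 and KO FAC 6 they were 0.53 and −0.46 (edgeR adjusted p = 0.00525 and 0.0208). With the first of these removals, treatment in KO cells coincides with the division of KO libraries on the third principal component.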

How the results depend on the processing

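Over 102 results on single carriers and 1627 alternative values, none reversed a call, 121 lost a call, 27 gained one and 1479 kept their side of the threshold. The 1627 include alternatives of results not called in the main fit, which could not lose a call. Among results called there the share lost was therefore larger than 121 of 1627. With only the 2 groups compared, FAC called 6 carriers in KO and 11 in WT cells, and 2199 and 3345 genes. In KO cells the calls of Slc25a36, Slc25a17, Slc25a1, Slc25a12, Slc25a4 and Slc25a44 were then lost (edgeR adjusted p 0.0501 to 0.115). On TPM values FAC called 8 carriers in WT cells. TPM moved the median log2 fold change of all tested genes to −0.15 for FAC in KO, −0.10 for FAC in WT, −0.17 for KO under FAC and −0.11 for KO under AC, and FPKM with a pseudocount of 1 to −0.10 for KO under FAC. The difference of FAC effects called 678 genes by DESeq2 and 587 on log2(FPKM + 1) values, against 387. Without KO AC 1 and KO FAC 4 it called 11 carriers and 1918 genes. With libraries left out in turn, the carriers called ranged from 8 to 13 for FAC in KO, 2 to 5 for FAC in WT, 1 to 3 for the difference, 16 to 20 for KO under FAC and 14 to 18 for KO under AC. Genes called ranged from 2371 to 4095, from 1250 to 1656 and from 95 to 643 for the first 3 of these. The labels do not say whether library numbers shared by KO and WT pair the samples. Same-numbered deviations correlated at −0.14 to 0.21, and the highest correlation with another number was 0.03 to 0.22. With 3 libraries per group these correlations cannot decide on pairing. With the number as a replicate block the difference called 0 carriers (9 at an unadjusted edgeR p under 0.05, and 2 by DESeq2 without the block) and 84 genes, at 0.49 and an adjusted p of 0.0568 for Slc25a3 and −0.43 and 0.0866 for Slc25a13. The block called 17 carriers and 5688 genes for KO under FAC, and 16 carriers and 4670 genes under AC. Under AC it lost the calls of Slc25a22, Slc25a39 and Slc25a46, and Slc25a22 and Slc25a23 were among those lost under FAC. The cause of these changes was not tested. The 10 carriers with few reads could not be compared at this depth.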
